A study of Mus musculus with 24 samples.

Results

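Mitochondrial fusion and fission genes were examined in bulk RNA-seq of LSKs, the Lin-Sca-1+c-Kit+ bone marrow fraction in which mouse hematopoietic stem cells and early progenitors are found. The members were the rows of the read count table whose symbol was Mfn1, Mfn2 or Opa1 (fusion), Oma1 or Yme1l1 (proteases that act on OPA1), or Dnm1l, Fis1, Mff, Mief1 or Mief2 (fission). These are 10 of the 24091 genes in the table, and all 10 were among the 13520 genes with enough reads to be tested. LSKs came from 24 mice, 6 in each of 4 groups and 3 females and 3 males in each group. WT mice were miR-142+/+ and miR-142 KO mice miR-142-/-, both without BCR-ABL. CP CML mice were miR-142+/+ BCR-ABL, the model of chronic phase chronic myelogenous leukemia, and BC CML mice were miR-142-/- BCR-ABL, the model of blast crisis. BCR-ABL was expressed from a tetracycline-off transgene in which the SCL promoter drives the transactivator, and tetracycline withdrawal switched it on. The LSKs were taken after a shorter induction than that at which the study reports the first circulating blasts of BC CML mice. Its BCR-ABL and miR-142 KO lines were on the B6 background. The study matched its CML mice for age and sex, and for SCL and BCR-ABL levels.

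Mitochondria join and divide continually. MFN1 and MFN2 are GTPases that tether and fuse outer membranes, OPA1 fuses inner membranes and holds cristae junctions, and the proteases OMA1 and YME1L1 cut OPA1 into long and short forms. For division, FIS1, MFF, MIEF1 and MIEF2 sit on the outer membrane and serve as receptors or adaptors for the GTPase DRP1, which Dnm1l encodes. Transcript levels do not report the cutting of OPA1 or the recruitment of DRP1.

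The comparison of miR-142 KO with WT, and of BC CML with CP CML, asked what changed in LSKs on loss of miR-142, without and with BCR-ABL. Mir142 was read first as a check of the labels, and it had 94 to 127 counts in WT, 68 to 153 in CP CML and 0 in all 12 miR-142 KO and BC CML libraries, where a count of 0 allows up to 3 counts. Both mature strands of the deleted miRNA are shown because their seeds define the sites searched for in the members. The RefSeq sequences on GRCm38.p6 lie at chr11:87756867-87756887 and chr11:87756903-87756925, both on the plus strand. Capitals mark the seed, bases 2 to 8.
mmu-miR-142a-5p: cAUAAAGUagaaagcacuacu
mmu-miR-142a-3p: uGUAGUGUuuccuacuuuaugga

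The longest annotated 3' untranslated region (UTR) of each member was searched on the transcript strand for the letters that pair with these seeds. For miR-142a-5p the letters were ACTTTATA (8mer), ACTTTAT without that final A (7mer-m8) and CTTTATA without the leading A (7mer-A1). For miR-142a-3p they were ACACTACA, ACACTAC and CACTACA in the same order. Of the 12603 tested genes with an annotated 3' UTR, 23.3% held at least 1 match to the miR-142a-5p seed and 11.8% at least 1 to the miR-142a-3p seed. Among the members, Mfn1 and Opa1 held matches to miR-142a-5p, Dnm1l held 1 to miR-142a-3p, and the other 7 held neither in this window. No member held an 8mer, which 5.14% of genes had for miR-142a-5p and 3.06% for miR-142a-3p. The Mfn1 match is a 7mer-m8, a kind found in 12.0% of genes, and starts 49 bases after the stop codon, at chr3:32577190-32577196 on the plus strand. The 2 Opa1 matches are 7mer-A1, found in 11.2% of genes, at chr16:29652740-29652746 and chr16:29653449-29653455 on the plus strand. The Dnm1l match is a 7mer-A1, found in 5.79% of genes, at chr16:16312396-16312402 on the minus strand. Capitals in the windows, which are 29 bases long and taken from GRCm38.p6, mark the match.
Mfn1 window: aagatgggaaatgttACTTTATgaaatga
Opa1 window, upstream match: taatattttcatgcgCTTTATAtaaaatt
Opa1 window, downstream match: attggattcatatctCTTTATActttttt
Dnm1l window: atggaagatgtttagCACTACAcactttg

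A match of letters does not say that the miRNA binds there. Over all tested genes, the median log2 fold change of genes with a miR-142a-3p 8mer was 0.11 in miR-142 KO against WT and 0.15 in BC CML against CP CML, beside 0.01 in both for genes with no match to that seed. Genes with a miR-142a-5p 8mer had medians of -0.02 and 0.04, beside 0.02 and 0.02 for genes with none. The members' matches were all 7mers, and genes with a 7mer and no 8mer had medians of 0.03 and 0.07 for miR-142a-3p and of -0.0043 and 0.02 for miR-142a-5p.

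Total counts per library ranged from 16267965 to 24687077. In the 12 marker lists of blood cell types and states, no gene found in the table was at 0 in all libraries of a group. The LSK gate genes Kit, Ly6a, Cd34 and Cd48 summed to 2056 to 2619 CPM (counts scaled to a library of 1000000) over all 24 libraries. Within that sum, Ly6a was at 30.75 to 49.5 CPM for WT, 51.5 to 155.4 for miR-142 KO, 36.62 to 69.93 for CP CML and 94.32 to 134.8 for BC CML. Kit was at 783.6 to 1220 CPM for WT, 661.9 to 971.5 for miR-142 KO, 973.9 to 1240 for CP CML and 745.6 to 883.5 for BC CML. Of the 4, 1 was called higher and 1 lower in BC CML against CP CML (38.0% of all genes called). In miR-142 KO against WT 1 was higher and 0 lower (36.3%). The sums of other lists moved with the groups. The hematopoietic stem cell list (Procr, Slamf1, Mecom, Hlf, Mllt3 and Fgd5) summed to 465.1 to 932.9 CPM for WT, 267.8 to 392.3 for miR-142 KO, 338.6 to 476.8 for CP CML and 207.1 to 296.7 for BC CML, and 5 of its 6 genes fell in each miR-142 comparison, where 36.3% (miR-142 KO against WT) and 38.0% (BC CML against CP CML) of all genes were called in either direction. The list of mast cell or basophil genes (Cpa3, Mcpt8, Prss34, Gzmb and Fcer1a) summed to 68.48 to 527.8 CPM for WT, 186 to 2410 for miR-142 KO, 1133 to 2148 for CP CML and 3248 to 7005 for BC CML, and 4 of its 5 genes rose for miR-142 KO (36.3% of all genes called) and 3 for BC CML (38.0%). The neutrophil-primed list (Elane, Mpo, Prtn3, Ctsg and Ms4a3) summed to 1247 to 4844 CPM for WT, 2763 to 7534 for miR-142 KO, 4484 to 7645 for CP CML and 5832 to 8562 for BC CML. The lymphoid-primed list (Flt3, Dntt, Il7r, Rag1 and Ccr9) summed to 1585 to 2469 CPM for WT, 336.7 to 876.4 for miR-142 KO, 721.7 to 1182 for CP CML and 396.6 to 667.2 for BC CML. Flt3 and Dntt had the highest medians of this list in every group, and its genes moved in both directions. Of the 5, 2 were called higher and 1 lower in BC CML against CP CML (38.0% of all genes called). In miR-142 KO against WT 1 was higher and 2 lower (36.3%). The B or plasma cell list summed to 64.69 to 952.2 CPM for WT, 26.59 to 36.77 for miR-142 KO, 164.7 to 746 for CP CML and 27.76 to 38.58 for BC CML. The 3 erythroid genes found in the table summed to 43.2 to 96.82 CPM for WT, 2.787 to 116.1 for miR-142 KO, 7.067 to 31.69 for CP CML and 0.9498 to 4.186 for BC CML. In bulk samples fewer cells of a type and less RNA per cell cannot be told apart, and the part of this changed makeup in the differences below was not tested.

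All 10 members were read in every library. Counts were lowest for Mief2, with 118 to 204 reads, and between 532 and 5408 for the other 9. Levels of different genes were compared per length, as RPKM, which is CPM divided by the length in kilobases, with the gene lengths of the deposited table. Fis1 had the highest level in every group, from 61.8 ± 4.98 RPKM (SD, n = 6) in WT to 72.6 ± 3.86 in BC CML, and its lowest library lay above the highest of any other member. Dnm1l followed at 36.6 to 40.6 RPKM by group mean, then Mff at 33.9 to 40.3, Yme1l1 at 29.2 to 34.5 and Opa1 at 24.4 to 28.4. The ranges of Dnm1l and Mff overlapped in every group, so their order was not beyond the spread. Oma1, Mfn2 and Mfn1 came next, with Mfn2 above Oma1 in CP CML and below it in the other groups, but the ranges of Oma1 and Mfn2 overlapped in all 4 groups. Mief1 at 10.3 to 11.1 RPKM and Mief2 at 2.79 to 2.89 were the lowest by mean in every group, with Mief1 overlapping Mfn1 in WT and CP CML. Per length, the fission receptors therefore held both ends of the order, Fis1 at the top and the MIEF genes at the bottom. This order rests on the deposited lengths, and that of Fis1, 1.096 kilobases, was the shortest of the members. Before division by length, Fis1 averaged 67.7 CPM in WT, beside 205.3 for Dnm1l.

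**Figure D1:**
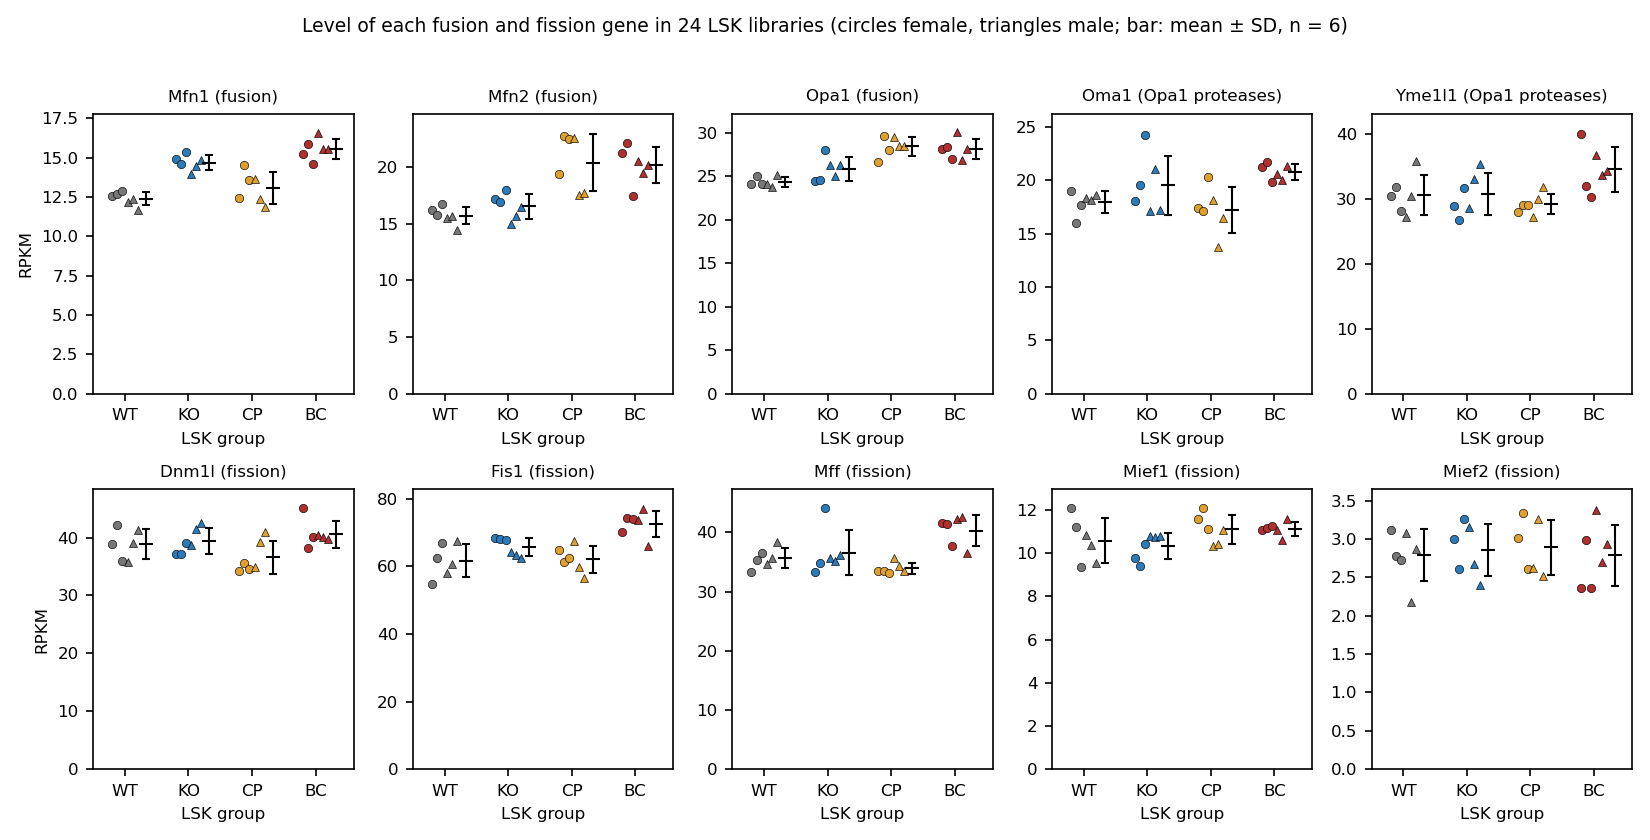
Level in RPKM (y axis, from 0) of each of the 10 members in 24 LSK libraries, by group (x axis: WT, miR-142 KO, CP CML, BC CML); circles are females, triangles males, and bars the mean ± SD of 6 libraries. Mfn1 is higher in the groups without miR-142 (KO and BC), Mfn2 and Opa1 in the groups with BCR-ABL (CP and BC), and Fis1, Mff, Yme1l1 and Oma1 have their highest means in BC CML.

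Among the fusion genes, Mfn1 was higher on loss of miR-142 with and without BCR-ABL, whereas Mfn2 and Opa1 were higher with BCR-ABL. Differences between groups were tested in edgeR with its quasi-likelihood test, all 24 libraries in 1 fit and Benjamini-Hochberg adjustment over the 13520 genes, and an adjusted p below 0.05 was called. Levels within a gene are given in CPM, scaled by trimmed mean of M-values (TMM).

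Mfn1, 1 of the 2 outer membrane mitofusins, lies at chr3:32529482-32579225 (mm10). The lowest, median and highest Mfn1 levels were 60.2, 64.3 and 66.5 CPM for WT, 72.0, 76.1 and 79.1 for miR-142 KO, 61.2, 67.1 and 74.9 for CP CML, and 75.4, 80.2 and 85.4 for BC CML. Every miR-142 KO library lay above every WT library, and every BC CML library above every CP CML library. The log2 fold change was 0.24 ± 0.045 (SE) in miR-142 KO against WT, a 1.18-fold difference with an edgeR adjusted p of 0.000168. It was 0.25 ± 0.045 in BC CML against CP CML, a 1.19-fold difference with an edgeR adjusted p of 0.000125. The difference between these 2 effects was 0.01 on the log2 scale with a 95% confidence interval of -0.12 to 0.14. BCR-ABL moved Mfn1 less, by 0.08 in CP CML against WT (edgeR adjusted p = 0.167) and by 0.08 in BC CML against miR-142 KO (0.141), and neither passed. The CP CML difference passed without CP CML replicate 6, at 0.12 with an edgeR adjusted p of 0.0289.

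Mfn2, the other mitofusin, which also tethers mitochondria to the endoplasmic reticulum, lies at chr4:147873586-147904909. Its lowest, median and highest levels were 76.1, 83.0 and 88.3 CPM for WT, 78.9, 88.1 and 94.9 for miR-142 KO, 92.4, 110.4 and 120.1 for CP CML, and 92.1, 107.4 and 116.6 for BC CML. All 6 CP CML libraries lay above all WT libraries, whereas BC CML and miR-142 KO overlapped. Mfn2 rose by 0.38 ± 0.069 on the log2 scale in CP CML against WT (edgeR adjusted p = 0.000157) and by 0.29 ± 0.069 in BC CML against miR-142 KO (0.00245). Loss of miR-142 gave 0.07 without BCR-ABL, with a confidence interval of -0.07 to 0.22, and -0.02 with it, with an interval of -0.16 to 0.13. Neither passed, at edgeR adjusted p-values of 0.424 and 0.873. The CP CML libraries spread most for this gene, with 3 at 118.6 to 120.1 CPM, 1 at 102.1 and 2 males at 92.4 and 93.2, a coefficient of variation of 12.3% beside 4.91% in WT.

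Opa1, the inner membrane fusion GTPase, lies at chr16:29579334-29654602. The lowest, median and highest Opa1 levels were 164.5, 167.0 and 174.7 CPM for WT, 170.0, 177.8 and 194.7 for miR-142 KO, 184.5, 197.4 and 205.3 for CP CML, and 186.3, 195.1 and 208.5 for BC CML. The CP CML and WT ranges did not overlap. The log2 fold change was 0.22 ± 0.038 in CP CML against WT (edgeR adjusted p = 8.33e-05) and 0.12 ± 0.038 in BC CML against miR-142 KO (0.0135), and the latter did not pass without miR-142 KO replicate 1 (0.0505) or BC CML replicate 4 (0.0685). On loss of miR-142 it was 0.08 without BCR-ABL, with an interval of 0.00 to 0.16 and an edgeR adjusted p of 0.0991, and -0.02 with BCR-ABL (0.759). Without miR-142 KO replicate 1 or replicate 2 the former passed, at 0.10 in both fits with edgeR adjusted p-values of 0.0463 and 0.0455.

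**Figure D2:**
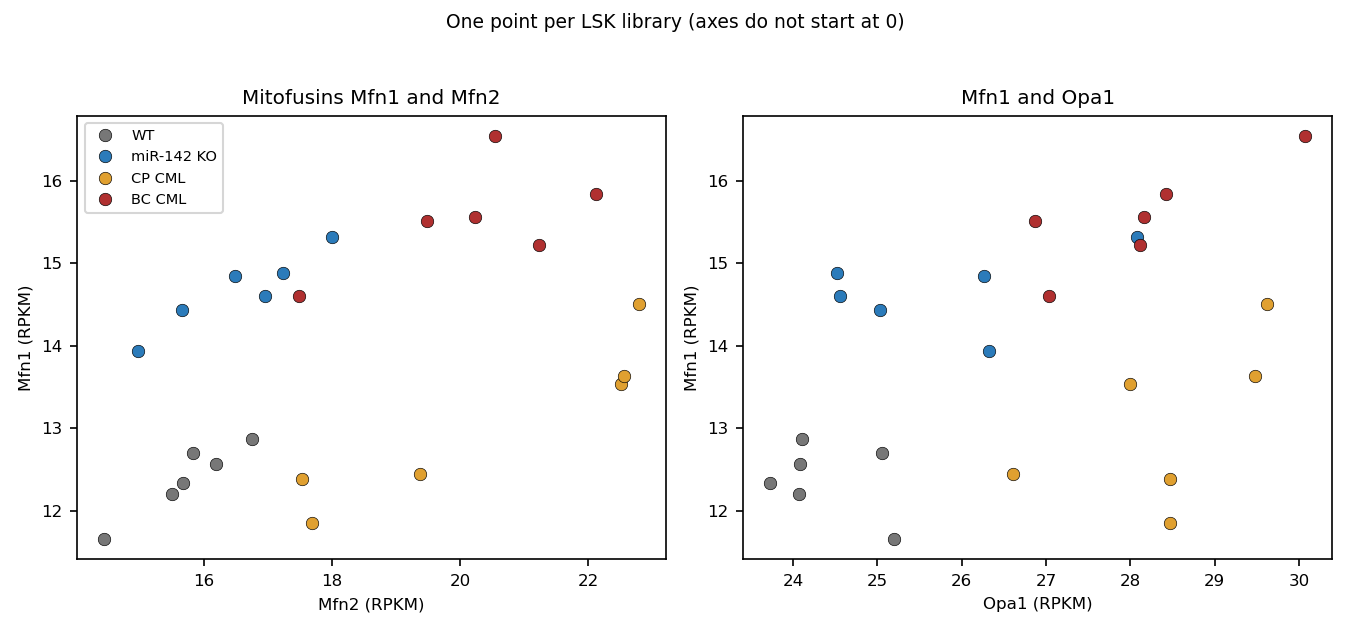
Mfn1 level (y axes, RPKM) against Mfn2 (left, RPKM) and Opa1 (right, RPKM), with 1 point for each of 24 LSK libraries coloured by group; the axes do not start at 0. In the left panel the WT and miR-142 KO points overlap along the Mfn2 axis with miR-142 KO above, and most CP CML and BC CML points lie further to the right, with 3 of the 12 inside the miR-142 KO range.

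The ratio of Mfn1 to Mfn2 in RPKM is given as a description of how the mitofusins moved apart. It was 0.768 to 0.808 in WT and 0.851 to 0.931 in miR-142 KO. With BCR-ABL it was lower, 0.602 to 0.707 for CP CML and 0.716 to 0.835 for BC CML. The ranges with and without miR-142 did not overlap in either pair of groups, and those of WT and BC CML overlapped.

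Both OPA1 proteases were higher in BC CML LSKs than in LSKs of CP CML mice. OMA1 is activated by mitochondrial stress, and its gene lies at chr4:103313846-103366428. The lowest, median and highest Oma1 levels were 29.7, 33.8 and 35.2 CPM for WT, 31.7, 34.9 and 45.0 for miR-142 KO, 25.5, 32.0 and 37.7 for CP CML, and 36.9, 38.8 and 40.3 for BC CML. BC CML libraries were tightly grouped, with 1 CP CML library inside their range. Oma1 rose by 0.27 ± 0.082 on the log2 scale in BC CML against CP CML (edgeR adjusted p = 0.0110). In miR-142 KO against WT the log2 fold change was 0.12, with an interval of -0.05 to 0.29 and an edgeR adjusted p of 0.254.

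YME1L1 cuts OPA1 constitutively, and Yme1l1 lies at chr2:23156505-23199260. Its lowest, median and highest levels were 172.8, 193.8 and 228.5 CPM for WT, 170.7, 193.0 and 225.6 for miR-142 KO, 173.6, 185.2 and 202.7 for CP CML, and 193.3, 216.3 and 254.9 for BC CML. WT and miR-142 KO had nearly the same range, and the upper BC CML libraries lay above all CP CML libraries. Yme1l1 rose by 0.24 ± 0.074 on the log2 scale in BC CML against CP CML (edgeR adjusted p = 0.0121), a call that did not pass without BC CML replicate 1 (0.18, edgeR adjusted p = 0.0609). In miR-142 KO against WT the log2 fold change was 0.01, with an interval of -0.15 to 0.16. In BC CML against miR-142 KO it was 0.17 (edgeR adjusted p = 0.0745), and it passed without miR-142 KO replicate 6, at 0.20 (0.0407). The ratio of Yme1l1 to Oma1 in RPKM averaged 1.60 to 1.73 in the 4 groups, with overlapping ranges.

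On the fission side, Fis1, Mff and Dnm1l were higher in BC CML against CP CML, and none of the 5 genes passed in miR-142 KO against WT or in CP CML against WT. Fis1, a tail-anchored outer membrane protein, is encoded at chr5:136953275-136966234. The lowest, median and highest Fis1 levels were 60.0, 67.6 and 74.0 CPM for WT, 68.6, 72.3 and 75.0 for miR-142 KO, 61.9, 67.9 and 74.2 for CP CML, and 72.5, 81.0 and 84.5 for BC CML. BC CML LSKs stood above the other 3 groups by median, with some overlap of ranges. The log2 fold change was 0.23 ± 0.053 in BC CML against CP CML (edgeR adjusted p = 0.00173) and 0.14 ± 0.053 in BC CML against miR-142 KO (0.0346). The latter call was lost in 17 of 34 alternative fits. In miR-142 KO against WT it was 0.09, with an interval of -0.02 to 0.20 (edgeR adjusted p = 0.188).

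Mff, which encodes a main receptor of DRP1, lies at chr1:82724890-82752389. The lowest, median and highest Mff levels were 62.9, 67.0 and 72.3 CPM for WT, 63.0, 66.9 and 83.2 for miR-142 KO, 62.6, 63.3 and 67.3 for CP CML, and 69.0, 78.3 and 80.3 for BC CML. Every BC CML library lay above every CP CML library, and the highest miR-142 KO library, replicate 3, lay far above the other 5, which reached 68.4 CPM. Mff rose by 0.25 ± 0.056 on the log2 scale in BC CML against CP CML (edgeR adjusted p = 0.00115). It rose by 0.14 ± 0.056 in BC CML against miR-142 KO (0.0460), and 27 of 34 alternative fits lost that call. In miR-142 KO against WT the log2 fold change was 0.04, with an interval of -0.08 to 0.15.

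Dnm1l, the gene of DRP1, lies at chr16:16312228-16359031. Its lowest, median and highest levels were 189.0, 205.7 and 222.7 CPM for WT, 196.3, 205.6 and 225.0 for miR-142 KO, 180.6, 186.2 and 216.6 for CP CML, and 202.1, 211.7 and 238.1 for BC CML. The ranges of all 4 groups overlapped, and BC CML replicate 1 stood above the rest of its group. The log2 fold change of 0.15 ± 0.055 in BC CML against CP CML had an edgeR adjusted p of 0.0330, and 25 of 34 alternative fits lost the call. Without BC CML replicate 1 it was 0.10 with an edgeR adjusted p of 0.159. In miR-142 KO against WT it was 0.02, with an interval of -0.09 to 0.13.

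The adaptors Mief1 and Mief2, at chr15:80234080-80253371 and chr11:60728398-60732951, passed in no comparison. Mief1 ranged from 52.9 to 68.2 CPM over the 24 libraries, and its group means lay between 58.2 and 62.8 CPM. In BC CML against CP CML its log2 fold change was 0.00, with an interval of -0.11 to 0.12. Mief2 ranged from 5.49 to 8.52 CPM, with group means of 7.02 to 7.29. Its log2 fold change in BC CML against CP CML was -0.05, with an interval of -0.29 to 0.18, the widest of the 10 genes.

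**Figure D3:**
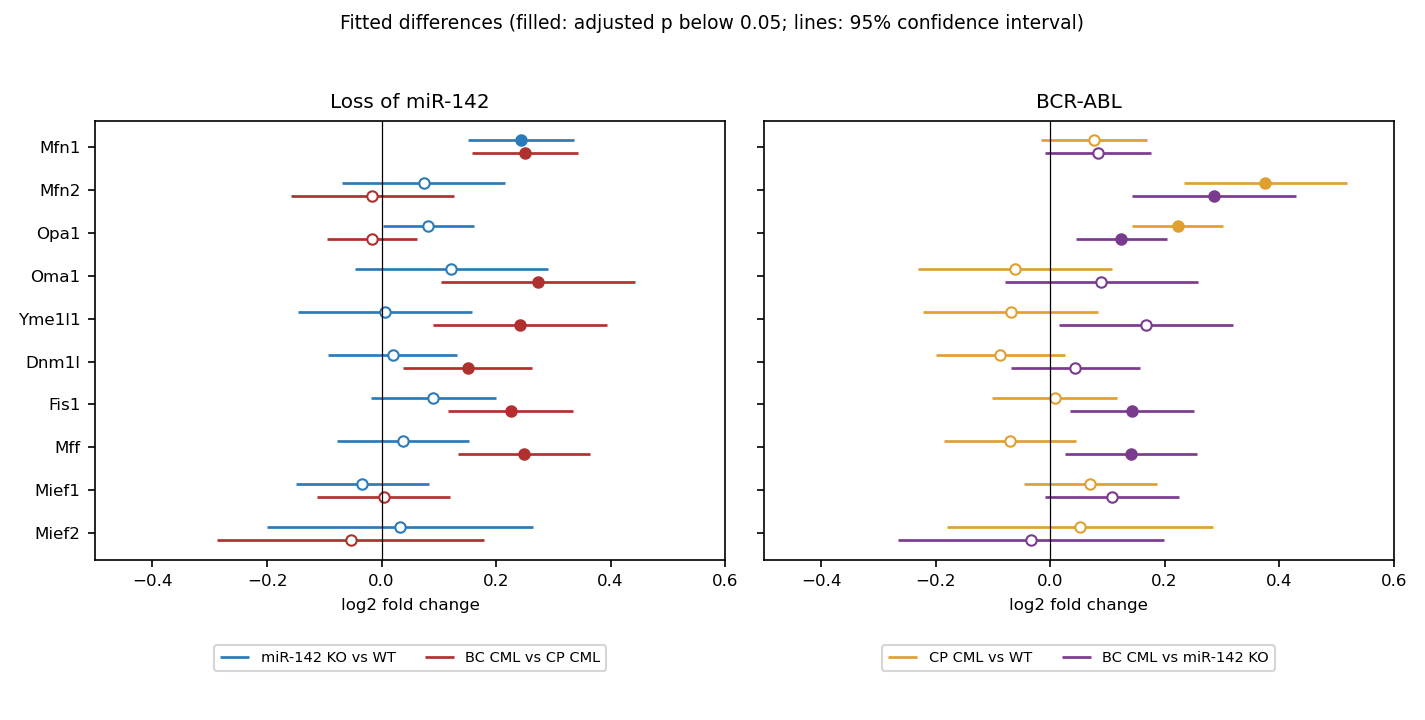
Fitted log2 fold change (x axes) of each member with its 95% confidence interval, for loss of miR-142 (left: miR-142 KO vs WT and BC CML vs CP CML) and for BCR-ABL (right: CP CML vs WT and BC CML vs miR-142 KO); filled points have an edgeR adjusted p below 0.05. On the left Mfn1 is filled in both comparisons and Oma1, Yme1l1, Dnm1l, Fis1 and Mff in BC CML vs CP CML alone; on the right Mfn2 and Opa1 are filled in both and Fis1 and Mff in BC CML vs miR-142 KO alone.

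Counted over the 10 members, 6 were higher and 0 lower in BC CML against CP CML, beside 38.0% of all genes tested that were called in either direction. The 6 were Mfn1, both proteases, Dnm1l, Fis1 and Mff. In miR-142 KO against WT 1 of 10 was called, Mfn1, beside 36.3% of all genes. In CP CML against WT 2 were called, beside 45.4%, and in BC CML against miR-142 KO 4, beside 39.6%. No member was called lower in any of the 4 comparisons. Groups did not overlap for 2 members in BC CML against CP CML (20.7% of all genes), 1 in miR-142 KO against WT (14.5%), 2 in CP CML against WT (21.8%) and 0 in BC CML against miR-142 KO (10.6%). The median absolute log2 fold change of the members was 0.19 in BC CML against CP CML, where that of all genes was 0.19, and 0.06 in miR-142 KO against WT, where that of all genes was 0.18. Comparisons that name the same group share its 6 libraries, whereas the 2 miR-142 comparisons share none with each other, nor do the 2 BCR-ABL comparisons.

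Whether the miR-142 effect differed with and without BCR-ABL was tested as the difference between the BC CML against CP CML and the miR-142 KO against WT effects. In edgeR 0 of 10 members passed, beside 3.99% of all genes, and 2 had an unadjusted p below 0.05. These were Mff, at 0.21 on the log2 scale with an interval of 0.05 to 0.37 and an edgeR adjusted p of 0.129, and Yme1l1, at 0.24 with an interval of 0.02 to 0.45 and an edgeR adjusted p of 0.210. DESeq2 and the likelihood ratio test of edgeR also called 0. Without miR-142 KO replicate 3, the library with the high Mff level, the Mff difference was 0.25 with an edgeR adjusted p of 0.0182. For Fis1, Dnm1l and Oma1 the difference was 0.13, 0.13 and 0.15, with intervals that included 0. Calls in BC CML against CP CML alone are therefore not shown to depend on BCR-ABL.

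Summed over Mfn1, Mfn2 and Opa1, the fusion level averaged 52.5 ± 1.03 RPKM for WT, 57.0 ± 2.34 for miR-142 KO, 61.9 ± 4.09 for CP CML and 63.8 ± 2.97 for BC CML. The WT range ended at 53.7 RPKM, below the lowest library of each other group. Summed over the 5 fission genes, the level was 149.6 ± 6.84 RPKM for WT, 154.9 ± 4.96 for miR-142 KO, 146.6 ± 2.58 for CP CML and 167.4 ± 5.77 for BC CML. BC CML ranged from 157.0 to 173.1 RPKM, above the 143.9 to 151.2 of CP CML. The ratio of the fusion to the fission sum was highest in CP CML, at 0.397 to 0.459, and was 0.357 to 0.407 in BC CML, 0.359 to 0.373 in miR-142 KO and 0.321 to 0.372 in WT. CP CML and BC CML overlapped in this ratio, and Fis1 made up 38.5% to 45.1% of the fission sum over all libraries. These sums weight genes by their level and are given without a test.

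**Figure D4:**
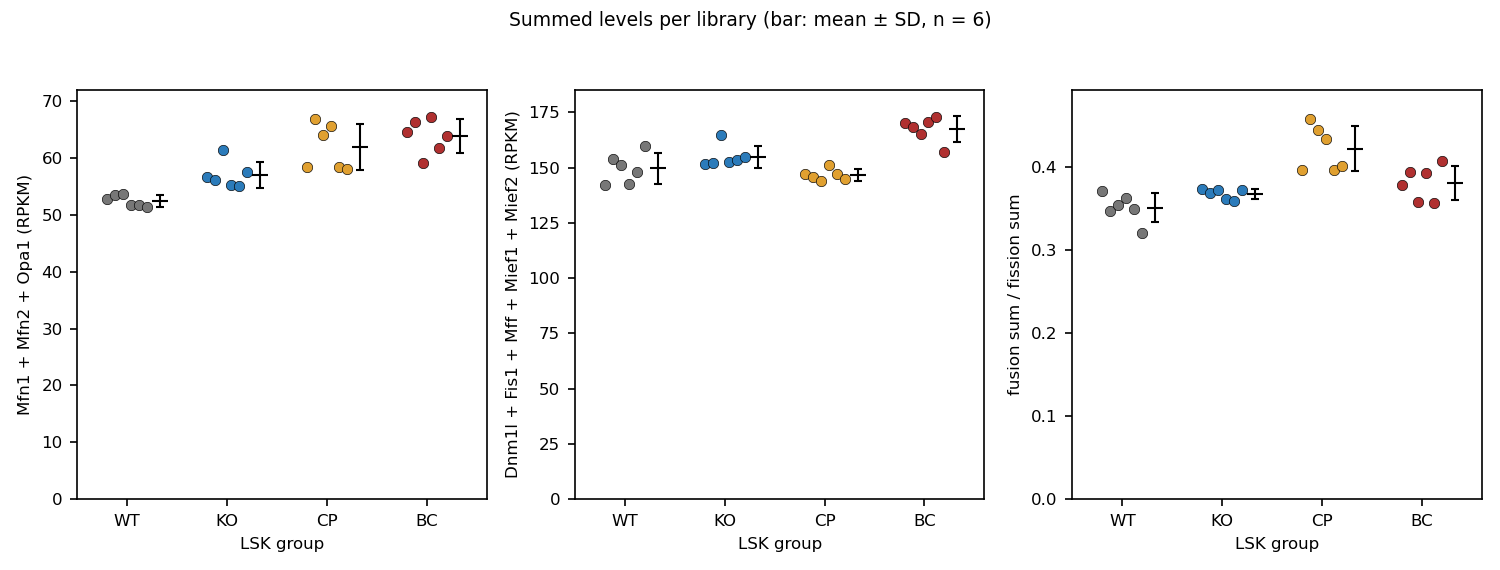
Summed RPKM of the fusion genes (left) and the fission genes (middle) and their ratio (right) for each LSK library by group, with bars for the mean ± SD of 6 libraries and y axes from 0. The fusion sum is lowest in WT, the fission sum highest in BC CML and the ratio highest in CP CML.

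Within groups, 3 of 45 pairs of members varied together or apart beyond permutation of libraries within groups, over 24 libraries and after adjustment over the 45 pairs. Each value is the correlation of log2 CPM deviations from the group mean, which share library, depth and normalization. Mfn1 and Mfn2 had r = 0.868 (adjusted permutation p = 0.0009) and rho = 0.852 (0.00225). Their r was 0.843 without the 2 libraries farthest from the median in Mfn1, the first gene of the pair, and extremes of Mfn2 were not sought. Yme1l1 and Dnm1l had r = 0.825 (0.00045, from 1e-05, the smallest p that 100000 permutations give) and rho = 0.83, and r was 0.787 without the 2 farthest in Yme1l1. Fis1 and Mief1 varied in opposite directions, with r = -0.679 (0.0291) and rho = -0.579 (0.123), and r was -0.64 without the 2 farthest in Fis1. Within group and sex the r values were 0.871, 0.878 and -0.769. The mitofusins thus followed each other among mice of a group, although their group means moved in different comparisons. Pairs of other genes were not permuted in this way, so the 3 pairs are not read as particular to the members.

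The 5 genes most like Mfn1 over the 24 libraries, out of 9559 genes averaging 10 CPM or more, were Copg1, Eloa, Kdelr2, Adam15 and Actr1b. Their log2 CPM correlated with that of Mfn1 at r = 0.95, 0.942, 0.942, 0.939 and 0.939, a description in which the differences between groups take part. As deviations from group means r was 0.742, 0.682, 0.707, 0.659 and 0.656. Copg1, a coat subunit of Golgi vesicles, averaged 194.7 CPM for WT, 260.7 for miR-142 KO, 216.9 for CP CML and 290.5 for BC CML, the same order of groups as Mfn1.

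Around the members, 48 further genes of mitochondrial dynamics were counted in 5 lists, and all 48 were tested. In BC CML against CP CML 13 were higher and 3 lower, beside 38.0% of all genes called in either direction, and in miR-142 KO against WT 15 were higher and 6 lower, beside 36.3%. In CP CML against WT 13 were higher and 9 lower, beside 45.4%, and in BC CML against miR-142 KO 12 and 6, beside 39.6%. The counts over the 48 genes lay near these shares, so nothing particular to the lists is read from them. Lists group genes by process and not by the direction in which each gene acts, so a count of higher genes is not read as more of that process. The median log2 fold change of the 48 was 0.09 in both miR-142 comparisons, beside 0.01 for all genes in each. The difference between the miR-142 effects passed for 0 of 48 in edgeR, and 6 had an unadjusted p below 0.05.

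Of 11 other fusion and inner membrane scaffold genes, 3 were higher and 1 lower in BC CML against CP CML (38.0% of all genes called), and 4 were higher and 2 lower in miR-142 KO against WT (36.3%). Miga2, which encodes an outer membrane protein that promotes fusion, rose by 0.27 on the log2 scale in BC CML (edgeR adjusted p = 0.00633). Stoml2, a cardiolipin-binding scaffold, rose by 0.29 in BC CML (0.0203), with BC CML and CP CML ranges that did not overlap, a call lost without CP CML replicate 5 or 6 or BC CML replicate 1 or 2 (0.0518 to 0.0742). Stoml2 also rose by 0.33 in miR-142 KO (0.00989). Afg3l2, an inner membrane protease subunit, rose by 0.25 in miR-142 KO (edgeR adjusted p = 0.00212) and by 0.15 in BC CML (0.0433), a call lost in 24 of 34 alternative fits. Miga1, the paralog of Miga2, fell by 0.22 on the log2 scale in miR-142 KO (0.00864), and its log2 fold change in BC CML was -0.16 (0.0479).

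Of 11 other fission genes, 5 were higher and 1 lower in BC CML (38.0% of all genes called), and 5 were higher and 1 lower in miR-142 KO (36.3%). Mtfr2, a mitochondrial fission regulator, had a log2 fold change of -0.36 in BC CML against CP CML (edgeR adjusted p = 0.00232) and -0.42 in miR-142 KO against WT (0.000619). Mtfp1, an inner membrane protein needed for division, rose by 0.48 in BC CML (0.00478) and by 0.48 in miR-142 KO (0.00471). Sh3glb1, which encodes a membrane-curving endophilin, rose by 0.23 in BC CML (0.00139). Akap1, which anchors protein kinase A at the outer membrane, rose by 0.36 in miR-142 KO (0.00399) and by 0.29 in BC CML (0.0136).

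Of 11 genes of cristae organization (the MICOS and SAM complexes), 2 were higher and 0 lower in BC CML against CP CML (38.0% of all genes called), and 4 were higher and 1 lower in miR-142 KO against WT (36.3%). Chchd3 and Minos1, both MICOS subunits, rose by 0.22 and 0.23 on the log2 scale in BC CML against CP CML (edgeR adjusted p = 0.00658 and 0.00847). In miR-142 KO against WT Chchd3 rose by 0.17 (0.0332), and Minos1 had 0.17 and did not pass (0.0501). Immt, the MICOS core subunit, had 0.15 in BC CML against CP CML (0.0819), and passed without miR-142 KO replicate 3 (0.14, edgeR adjusted p = 0.0186). Samm50 and Mtx1, of the outer membrane sorting machinery, rose by 0.31 and 0.28 in miR-142 KO (edgeR adjusted p = 0.00208 and 0.00692). In BC CML against miR-142 KO 7 of the 11 were higher and 0 lower, beside 39.6% of all genes called.

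Of 5 mitochondrial transport genes, 2 were higher and 1 lower in BC CML (38.0% of all genes called), and 1 was higher and 1 lower in miR-142 KO (36.3%). Kif5b, the kinesin heavy chain that carries mitochondria along microtubules, rose by 0.38 ± 0.065 in BC CML (edgeR adjusted p = 7.14e-05) and by 0.44 ± 0.065 in miR-142 KO (1.23e-05), with ranges that did not overlap in either comparison. Its adaptor Trak2 had a log2 fold change of -0.22 in BC CML (0.000233) and of -0.12 in miR-142 KO (0.0325), a call lost in 10 of 34 alternative fits. Rhot1, the outer membrane GTPase Miro that links mitochondria to motors, rose by 0.17 in BC CML (0.0230), a call lost in 11 of 34 alternative fits. Of 10 mitophagy genes, 1 was higher in BC CML (38.0% of all genes called) and 1 was higher and 1 lower in miR-142 KO (36.3%). Tax1bp1, an autophagy receptor, rose by 0.35 in BC CML (5.86e-05) and by 0.29 in miR-142 KO (0.000403), again without overlap. Fundc1, an outer membrane mitophagy receptor, had -0.27 in miR-142 KO (0.000475). Bnip3 and Optn, a further pair of mitophagy receptors, had 0.22 and -0.32 in BC CML against CP CML and did not pass (0.0925 and 0.170), although Optn passed with only the libraries compared (-0.33, edgeR adjusted p = 0.0120).

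**Figure D5:**
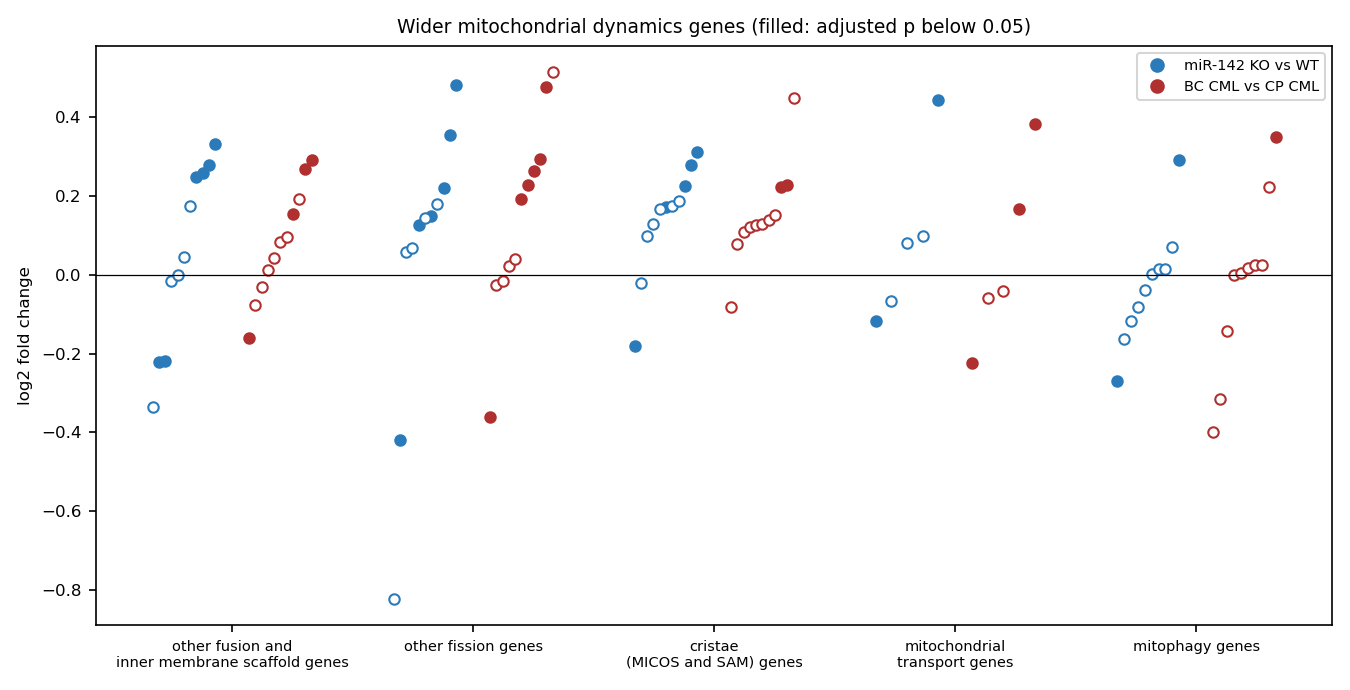
Fitted log2 fold change (y axis) of the 48 further genes of mitochondrial dynamics in 5 lists (x axis), for miR-142 KO vs WT and BC CML vs CP CML; each point is 1 gene, sorted within its list, and filled points have an edgeR adjusted p below 0.05. Called genes lie on both sides of 0 in every list in miR-142 KO vs WT. In BC CML vs CP CML they do so in the fusion, fission and transport lists, and the called cristae and mitophagy genes lie above 0.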

How the data were processed

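RNA from sorted bone marrow LSKs of 24 mice was sequenced by the authors, who trimmed reads with Trimmomatic and FASTP, mapped them to mm10 with STAR 2.6.0 and counted them per gene with HTSeq 0.11.1. The values deposited by the authors are these raw read counts, with no normalization. The gene annotation and the strand setting are not given in the sources used here. In the table's coordinates the spans of 5 members overlap other rows (Eno1b over Mfn2 and Oma1, and miRNA rows over Yme1l1, Mief1 and Mief2). Eno1b covers all of both Oma1 and Mfn2, which start at chr4:103313846 and chr4:147873586. The miRNA rows Mir684-1, Mir3473a and Mir5098 cover all of Yme1l1, Mief1 and Mief2, up to 42756 bases, far more than a miRNA. Such listed spans do not show that reads were shared, and how any shared reads were assigned is not given.

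Groups were taken from the genotype labels, and replicate numbers only name mice. The study's methods state fewer mice per group than the 6 labelled ones, all of which were used. Beyond genotype, sex and mouse of origin, the labels used here describe no sort or preparation batch. Each library came from 1 mouse, and p-values measure the spread between such libraries. Differences between mice and between sorts cannot be told apart in that spread. No 2 libraries of a group held identical counts, and every column of counts belonged to 1 of the 24 mice. Total counts of 16267965 to 24687077 per library set the precision of low genes, and a count of 0 allows up to 3 counts, for counting error only.

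Quasi-likelihood tests of edgeR 4.0.16 (R 4.3.3) were run on the counts after filterByExpr and TMM scaling, with 1 fit of all 24 libraries. Their p-values were adjusted by Benjamini-Hochberg over 13520 genes, at a threshold of 0.05 whatever the fold change. The fit's common dispersion was 0.02838. The study used edgeR's likelihood ratio test, which was run as an alternative. CPM used TMM-scaled library sizes, log2 CPM a prior count of 2, and RPKM the length column deposited by the authors, in kilobases, of unstated definition. The scripts were tested on simulated data, with far fewer changed genes than were called in the real data. There the quasi-likelihood test recovered 21 of 100 genes changed 1.2-fold and 96 of 100 changed 1.5-fold in BC CML against CP CML. Alternatives were other normalizations, filters and tests (DESeq2 1.42.0), sex as a covariate, each sex alone, only the libraries compared, and each mouse left out in turn.

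Named genes were all members, Mir142, the 5 genes most correlated with Mfn1, and from each wider list up to 3 genes by smallest p in BC CML against CP CML and up to 2 in miR-142 KO against WT. Members and lists were chosen with earlier results of these data known. Mature miRNAs came from RefSeq on GRCm38.p6. UTRs came from the longest GENCODE M21 3' UTR of each gene, which 93.22% of tested genes had. Permutations for correlations exchanged libraries within groups.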

Additional observations from a re-analysis of the deposited data

Results flagged for a closer look

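Of 40 sets of 6 libraries (10 members in 4 groups), 2 held a library whose gap to its nearest neighbour, divided by the whole range exceeded Dixon's 95% critical value for 6 samples, and chance flags about 1 in 20 such sets. Dnm1l in BC CML replicate 1 was at 238.1 CPM, beside 213.2 for the next highest BC CML library. Mff in miR-142 KO replicate 3 was at 83.2 CPM, beside 68.4 for the next highest miR-142 KO library. That mouse was also the highest of its group for Mfn1, Mfn2, Opa1, Oma1 and Mief2. Without it 6471 of 13616 genes were called in BC CML against miR-142 KO, beside 5358 of 13520 with all mice. In BC CML against CP CML 5608 of 13616 were called without it, beside 5137 of 13520. The effect of leaving these libraries out is given with each gene above, and the cause was not tested.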

How the results depend on the processing

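No paired analysis was possible because the labels carry no replicate number or mouse shared between groups. In 34 alternative fits, 24 of them without 1 mouse, the Mfn1 call in miR-142 KO against WT and the Mfn2 and Opa1 calls in CP CML against WT were made every time, and the Mfn1 call in BC CML against CP CML every time but in females alone (0.16, edgeR adjusted p = 0.131). The 6 members called in BC CML against CP CML became 0 in females alone and 3 in males alone, which leave 3 libraries in each group, and 4 to 6 without 1 mouse, 4 being without BC CML replicate 1. The 4 called in BC CML against miR-142 KO became 2 with upper quartile normalization, 2 with no filter, 2 with only the libraries compared, 0 in females, 1 in males, and 1 to 4 without 1 mouse (1 without BC CML replicate 4). The 1 called in miR-142 KO against WT became 1 to 2 without 1 mouse (2 without miR-142 KO replicate 1 or replicate 2), the 2 in CP CML against WT 2 to 3 (3 without CP CML replicate 6), and the 0 for the difference of the miR-142 effects 0 to 1 (1 without miR-142 KO replicate 3). With only the libraries compared that difference could not be fitted.

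Of the 48 wider genes, the 16 called in BC CML against CP CML became 3 in females and 12 to 17 without 1 mouse. The 21 in miR-142 KO against WT became 7 in females, 8 in males, 14 with only the libraries compared and 16 to 27. The 22 in CP CML against WT became 13 in females, 13 in males and 19 to 25. The 18 in BC CML against miR-142 KO became 1 in females and 16 to 22. For the named wider genes, whose alternatives were chosen after seeing the data, 778 of 850 values kept direction and call, 68 lost the call, 4 gained one and 0 changed direction.

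For the members, 1511 of 1690 values kept direction and call, 83 lost the call, 5 gained one and 91 changed direction, none of them a called difference, with a largest size of 0.13 and a smallest edgeR adjusted p of 0.486.

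In log2 units and with only males, direction changed for Mfn2 (0.059) and Mief2 (0.098) in BC CML against CP CML, Mff (-0.025) and Mief1 (0.070) in miR-142 KO against WT, Fis1 (-0.025) in CP CML against WT, Dnm1l (-0.035) and Mief2 (0.13) in BC CML against miR-142 KO, and Mfn2 (0.017), Dnm1l (-0.015), Mief1 (-0.0084) and Mief2 (0.081) in the difference of the miR-142 effects. With only females it changed for Mief1 (-0.070) in BC CML against CP CML, Yme1l1 (-0.054) and Dnm1l (-0.050) in miR-142 KO against WT, Oma1 (0.065) in CP CML against WT, and Mfn1 (-0.069) and Oma1 (-0.046) in the difference. With upper quartile normalization it changed for Mief1 (-0.042) in BC CML against CP CML, Yme1l1 (-0.045), Dnm1l (-0.031), Mff (-0.014) and Mief2 (-0.019) in miR-142 KO against WT, and Fis1 (-0.031) in CP CML against WT. Mief1 in BC CML against CP CML also changed with RLE size factors (-0.0090), at least 1 CPM in 6 libraries (-0.016), DESeq2 (-0.0087) and only the libraries compared (-0.012), as did Yme1l1 in miR-142 KO against WT with the last (-0.0038). The Mfn1 difference of effects was -0.0019 with RLE, -0.014 with the 1 CPM filter and -0.0024 with DESeq2.

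Without 1 mouse, values spanned 0 for Mfn2 (-0.074 to 0.00057) and Mief1 (-0.032 to 0.0076) in BC CML against CP CML, for Yme1l1 (-0.033 to 0.056), Mff (-0.014 to 0.069), Mief1 (-0.062 to 0.0083) and Mief2 (-0.026 to 0.083) in miR-142 KO against WT, for Oma1 (-0.10 to 0.0048) and Fis1 (-0.025 to 0.047) in CP CML against WT, for Mief2 (-0.11 to 0.0032) in BC CML against miR-142 KO, and for Mfn1 (-0.042 to 0.024) and Mief1 (-0.011 to 0.066) in the difference. The causes were not tested.

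With upper quartile normalization the share of called genes that were higher was 42.4% in BC CML against CP CML, beside 53.7% with TMM, 42.0% beside 54.7% in miR-142 KO against WT, 41.6% beside 49.6% in CP CML against WT and 43.2% beside 51.3% in BC CML against miR-142 KO. That scaling moved the median of all genes by at most 0.05 on the log2 scale. The SEs of the members' log2 fold changes were 0.04 to 0.11, so a difference of 0.1 was often within the error, and a member that missed the threshold is not shown to be unchanged.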
